A study of Mus musculus with 6 samples.

Results

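The nuclei described here are adrenaline-type chromaffin nuclei of the mouse adrenal medulla that carry Slc6a4 and Olfm3. They were found by 2 steps. A nucleus was called chromaffin when it held UMIs (unique molecular identifiers, counted RNA molecules) of at least 3 of Th, Dbh, Ddc, Slc18a1, Chga, Chgb, Xkr4 and Syt1, and when these 8 genes made up at least 0.3% of its UMIs. It was placed in the Slc6a4 and Olfm3 type when it held more distinct genes of a first list (Slc6a4, Olfm3, Lhfpl3, Spock1 and Ryr3) than of a second list (Lrrtm4, Dach2, Grm8, Lix1 and Pcdh15), and in the Lix1 and Dach2 type when the reverse was true. The rule gave 917 nuclei of 21032 nuclei used, and of 1436 chromaffin nuclei, while 415 fell in the Lix1 and Dach2 type and 104 were ties. The 18 rule genes therefore set the membership, and their levels are given only as a description.

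The study profiled single nuclei of whole mouse adrenal glands with and without Tmem127 by droplet sequencing of RNA 3′ ends (10x Genomics). The KO group was labelled Tmem127 KO and held 2 libraries, and the WT group was labelled wild type and held 3. All donors were female C57BL/6 J mice aged 10 to 11 months, and each library came from 1 pair of glands whose nuclei were freed in a salt and Tris buffer with Tween-20 and sorted on DAPI. A sixth library had a title that named it WT and a genotype entry that named it KO, so it entered no group and is called here the library with conflicting labels. The part of Tmem127 that was deleted, and whether the deletion was present in all tissues, are not given in the sources used here. Nothing states how animals relate to each other beyond the separate gland pairs, so p-values measure the spread between these libraries. KO replicate 1 and WT replicate 1 were counted with a Cell Ranger 4.0.0 annotation and the other libraries with a 3.1.0 annotation, which is the batch used in the tests.

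Chromaffin cells make catecholamines from tyrosine through Th, Ddc and Dbh, and store them with chromogranins in dense-core granules loaded by the vesicular transporters Slc18a1 and Slc18a2. Adrenaline cells carry 1 step more, the methylation of noradrenaline by Pnmt, an enzyme under the control of cortical glucocorticoid. TMEM127 is a membrane protein of endosomes and lysosomes, and its loss in the germ line predisposes people to phaeochromocytoma, a tumour of these cells.

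The KO libraries gave 162 and 145 member nuclei, the WT libraries 166, 130 and 124, and the library with conflicting labels 190. The libraries held 4825169 to 43377724 UMIs. Members had a median of 9308 and 2793 UMIs in KO, of 15984, 4231 and 11215.5 in WT and of 10785.5 in the library with conflicting labels, so KO replicate 2 was the shallowest. Summed over members, a library held 443281 to 2779916 UMIs. Levels are given as CPM, each gene's share of these summed UMIs scaled to the same total in every library. A lower level in a library can come from fewer transcripts per nucleus or fewer nuclei with the gene, which the sums do not separate. Pairs of libraries shared 2 to 9 barcodes.

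The first list led by at least 2 genes in 779 members. All 5 genes of the first list were detected in 411 members (44.8%), and 41 members held none of the second list. A margin of 1 gene decided 138 members (15.0%). Those just inside held Slc6a4 at 159 CPM and Pnmt at 361 CPM, whereas the 104 ties just outside held Slc6a4 at 173 CPM and Pnmt at 157 CPM. Members with a margin of at least 2 genes held Pnmt at 533 CPM, and nuclei in which the second list led by at least 2 genes held it at 14.1 CPM. On the other threshold, 16 nuclei with a chromaffin share of 0.3% to 0.4% lay just inside and 11 with 0.2% to 0.3% lay just outside.

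The 2 genes that name the type were found in members of every library. Slc6a4, the serotonin transporter (chr11:76998603-77032340, plus strand, GRCm38, GENCODE M21), stood at 397 and 405 CPM in KO, at 370.3, 305 and 452 CPM in WT and at 354 CPM in the library with conflicting labels. In the Lix1 and Dach2 type it stood at 12.6 to 39.5 CPM. Olfm3, a secreted olfactomedin-domain protein (chr3:114904078-115125722, plus strand), stood at 558 to 692 CPM in members and at 2.7 to 52.2 CPM in the Lix1 and Dach2 type. Lhfpl3 stood at 2441 to 3619 against 349 to 579.6 CPM, Spock1 at 685 to 828 against 138 to 303 CPM, and Ryr3, an intracellular calcium release channel, at 409 to 723 against 12.6 to 78.4 CPM. These genes chose the nuclei, and no test applies to them.

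The adrenaline label was checked with Pnmt, which the rule did not use (chr11:98386450-98388181, plus strand). Pnmt stood at 228 and 898 CPM in KO, at 379, 787 and 662 CPM in WT and at 626 CPM in the library with conflicting labels. In the Lix1 and Dach2 type of the same libraries it stood at 13.5, 110.1, 9.35, 33.7, 16.9 and 16.6 CPM, and members were above in all 6 libraries. After each nucleus was thinned to 1000 UMIs, which left out 18 members, 11 nuclei of the other type and 265 cortical nuclei, Pnmt was found in 20.5% to 48.1% of members. It was found in 0% to 9.52% of Lix1 and Dach2 nuclei and in 0.647% to 4.47% of 8022 nuclei with cortical markers, which serve as the background of free RNA. Without thinning the shares were 71.0% to 91.1%, 7.69% to 16.4% and 4.42% to 8.96%, at median depths of 2793 to 15984, 2162 to 13168 and 1717 to 11224 UMIs.

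Summed markers of the cortical, endothelial, glial, stromal and macrophage lists were lower in members than in all other nuclei, but not absent. Summed over 8 genes, zona fasciculata markers reached 548 to 735 CPM in KO and 548 to 952 CPM in WT, against 4086 to 9201 CPM in all other nuclei. The 7 endothelial markers summed to 51.5 to 72.4 and 39.3 to 94.3 CPM (other nuclei 928 to 1270.3). Of the 7 Schwann or sustentacular markers, Sox10, S100b and Fabp7 were at 0, and the others summed to 20.4 to 41.4 CPM over KO and WT (other nuclei 72.1 to 111). Of the 6 capsule or fibroblast markers Lum was at 0, and the sum was 6.19 to 24.9 CPM (other nuclei 169 to 369), while the 5 macrophage markers summed to 2.26 to 11.9 CPM (other nuclei 54.6 to 136). Exceptions, named after their values were seen, were Erbb3 of the Schwann list with 4.53 to 25.7 CPM in members and 2.44 to 9.47 CPM in other nuclei, and Rgs5 of the pericyte list with 0.673 to 9.05 and 0.122 to 2.30 CPM. The ganglion neuron list, which holds genes that chromaffin cells share, such as Npy and Snap25, was higher in members. It summed to 1255 to 2333 CPM in KO and 1748 to 2243 CPM in WT (other nuclei 27.9 to 51.3). Elavl4 stood at 131 to 178 CPM and Stmn2 at 22.2 to 69.2 CPM in members. The others of that list were lower, Rbfox3 at 6.06 to 12.6, Nefm at 0 to 4.39 and Prph at 0 to 2.69 CPM. Zona glomerulosa markers (72.8 to 104 against 45.8 to 62.9 CPM, other nuclei 1389 to 2359) and pericyte markers (11.3 to 13.6 against 2.69 to 9.43 CPM, other nuclei 30 to 65.1) were the 2 lists on which both KO libraries lay above every WT library, and their part in the comparisons of KO with WT was not tested.

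Members were set beside all nuclei outside the chromaffin class as a description without a test, since they were picked from the same nuclei by correlated genes. The 10 largest median log2 ratios over the 6 libraries were 7.61 to 8.14. They belonged to Mgat4c (8.14), a glycosyltransferase gene, and Sgcz (8.10), a sarcoglycan, followed by Rab3c (8.05), a GTPase of secretory vesicles, and Kcnip1 (8.01), a partner of Kv4 potassium channels. Next came Slc24a2 (8.01), a sodium and calcium exchanger, Dcc (7.91), the netrin receptor, Nrg3 (7.85), a ligand of ErbB4, Ralyl (7.84), an RNA-binding protein, Cntnap5a (7.77) and the cell adhesion gene Dscaml1 (7.61).

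Members were then set beside the Lix1 and Dach2 type within each library, again as a description, because the rule separates these 2 classes. Of 6923 genes measured outside the rule, 883 (12.8%) were higher in members in all 6 libraries and 751 (10.8%) were lower, with a median log2 ratio of 0.01. Ratios use CPM plus 1 and each is a median over the 6 libraries. The highest ratio was that of Gm27224, an unnamed gene model (median log2 ratio 6.66), which stood at 70.7 to 247 CPM in members and 0 to 16.9 CPM in the other type. Hhip, which binds hedgehog ligands, followed at 6.47 with 104, 99.6, 73.5, 149, 235 and 353 CPM in members (KO, WT, then the library with conflicting labels) and 0 to 11.6 CPM in the other type. Syt16 (6.10), a synaptotagmin, and Grid1 (5.81), a delta-type glutamate receptor subunit, stood at 81.7 to 152 and 137 to 248 CPM in members. Neto2 (5.54), an auxiliary subunit of kainate receptors, Il1rapl1 (5.47), a synaptic adhesion protein, Ntrk2 (5.33), the BDNF receptor, and Scn1a (5.09), a sodium channel subunit, came next. The 12 were completed by 2900011O08Rik (5.38), Gm26713 (5.09), Slc35f1 (4.97) and Pld5 (4.94), and Pnmt itself had a median of 4.83.

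At the other end, several genes were close to missing from members. Myl1, a myosin light chain of fast muscle, had the lowest ratio (-7.35), with 0 to 2.26 CPM in members and 181 to 381 CPM in the Lix1 and Dach2 type. Sgpp2, a sphingosine phosphatase (-7.23), stood at 0 to 2.69 against 143 to 297 CPM, and Ptprz1, a receptor tyrosine phosphatase (-6.65), at 1.57 to 6.25 against 191 to 559.9 CPM. Fam19a2 (-6.32), Slc24a4 (-5.20), Nxph1 (-5.19), Cdh20 (-5.03), Sncaip (-4.98), Brinp3 (-4.76), Nnat (-4.66) and Corin (-4.60) were also among the 12 lowest. The remaining one, the bHLH factor gene Neurod4, had 0 UMIs in members and 115 UMIs in 54 nuclei of the other type. Nxph1 was not close to missing in every library, and its ratio ran from -8.29 to -0.25. In WT replicate 3 it stood at 54.5 CPM in members against 64.9 CPM in the other type. Its 119 UMIs in members came from 10 nuclei. Penk, the enkephalin precursor, had 0 UMIs in members, which allows a share of up to 0.327% of members with a UMI and sets no limit on expression, and 27 UMIs in 10 nuclei of the other type. Penk was named after its value was seen.

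**Figure D1:**
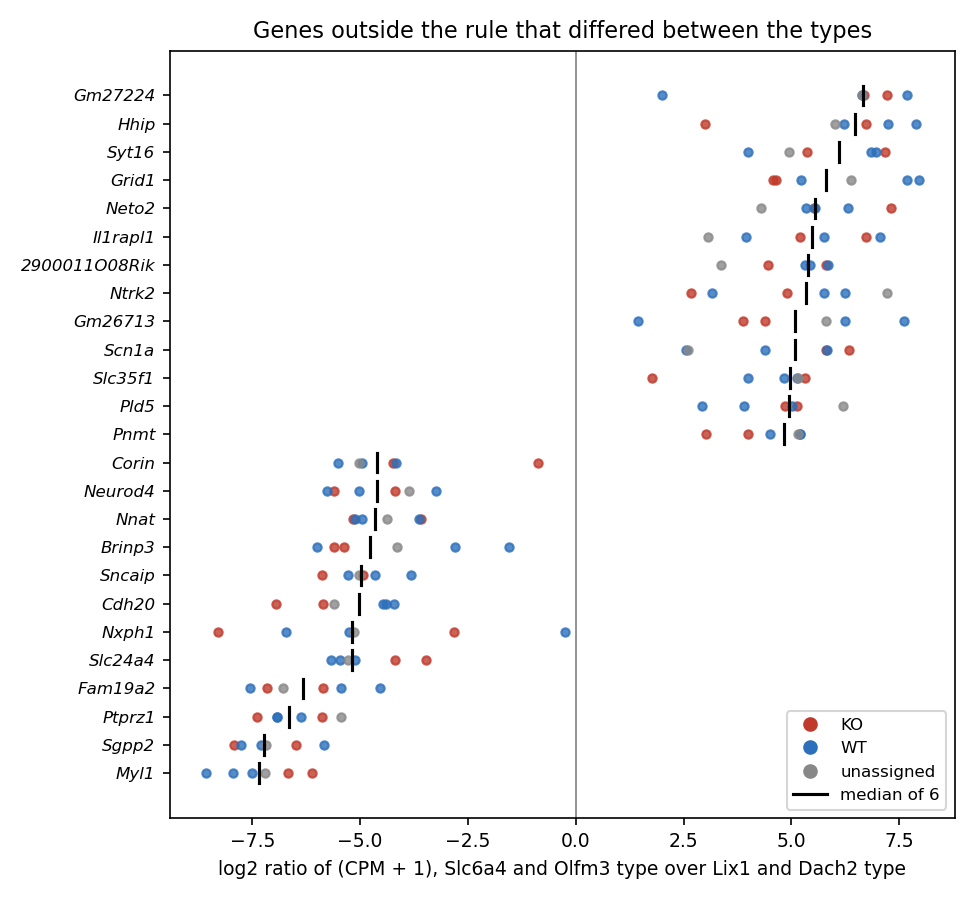
Log2 ratio of CPM plus 1 in members over the Lix1 and Dach2 type (x axis) for Pnmt and for the 12 genes with the highest and the 12 with the lowest median ratio outside the rule; each point is 1 library and the bar is the median of 6. Points of Gm27224 to Pnmt lie right of 0 and those of Corin to Myl1 left of 0 in all 6 libraries, with medians from 6.66 to -7.35.

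The catecholamine genes lay in both directions between the types. Of 9 measured outside the rule, 3 were higher in members in all 6 libraries and 2 were lower, with a median of -0.05 against 0.01 over all genes. The 3 were Pnmt, Gch1 (1.52), which makes the cofactor of Th, and the noradrenaline transporter Slc6a2 (3.98). Gch1 stood at 295, 1407, 487, 866, 406 and 1093 CPM in members and at 232, 469, 134, 299, 155 and 382 CPM in the other type, so the ranges over libraries overlapped although each library had the same order. The vesicular transporter Slc18a2 (-1.33) stood at 110.3 to 171 against 253 to 395 CPM, and Cyb561 (-0.66), which recycles ascorbate in the granule, was the other gene lower in all 6.

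Granule cargo and its processing enzymes were more often higher in members, with 6 of 13 higher in all 6 libraries, 2 lower and a median of 0.64. Npy (1.53) stood at 275 to 1020.4 against 123 to 487 CPM, and Pcsk1 (1.55), the prohormone convertase, at 302 to 1245 against 128 to 317 CPM. Vgf, a granin-like precursor, had a median ratio of 4.15, and Cpe, the carboxypeptidase of prohormones, of 1.35. Gal, the galanin precursor, was lower at -1.86. On the list of RET-pathway and growth factor receptor genes 7 of 9 were higher in all 6 libraries and 0 lower, with a median of 2.15. Erbb4 (4.74) stood at 158 to 416 against 5.4 to 23.2 CPM, the GDNF-family co-receptor gene Gfra2 (3.85) at 36.1 to 86 against 0 to 16.9 CPM, and Bmpr1b (3.40) and Gpc6 (2.15), a BMP receptor and a glypican, were among the others. Ret itself had 3 UMIs in 3 members and 65 UMIs in 48 nuclei of the Lix1 and Dach2 type.

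Ion channel and receptor lists showed both directions. Of 13 calcium channel genes 7 were higher in all 6 libraries and 2 lower, with Cacnb4 (4.18) at 90.9 to 115 against 0 to 8.69 CPM. Of 20 potassium channel genes 3 were higher and 8 lower. The lower ones included Kcnj3 (-4.51), a G-protein-gated inward rectifier, at 2.91 to 13.5 against 160.2 to 316 CPM, and Kcnn3 (-3.85), a small-conductance calcium-activated channel, at 2.26 to 15.7 against 146 to 301 CPM. Kcnma1, the large-conductance channel, had a ratio of 0.84. Of 6 receptor genes for splanchnic input (acetylcholine and PACAP), 0 were higher in all 6 libraries and 3 were lower, among them Chrna7 (-0.95; 805 to 2064 against 1617 to 2666 CPM) and the muscarinic receptor Chrm1 (-4.52; 0 to 1.57 against 24.3 to 38.8 CPM). Sodium channel genes gave 4 of 7 higher and 1 lower, and receptors for amines and amino acids 3 of 10 higher and 1 lower.

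Among 13 sympathoadrenal transcription factors 5 were higher in all 6 libraries and 3 lower. Isl1 (3.81) stood at 77 to 138 against 0 to 17.4 CPM and Gata2 (2.04) at 60.2 to 295 against 16.9 to 86.9 CPM, and Prox1 had a median of 1.61. Epas1, the HIF2 alpha gene, was lower (-2.06), at 12.1 to 56.6 against 87.5 to 143 CPM. On the glucocorticoid list 5 of 10 were higher and 0 lower with a median of 0.52, among them the metallothioneins Mt1 (1.97) and Mt2 (2.48) and the receptor gene Nr3c1 (0.96; 56.5 to 118 against 42.2 to 56.5 CPM). Immediate early genes gave 5 of 10 higher and 0 lower, with a median of 1.34. Adhesion and synapse genes gave 8 of 20 higher, such as Lrrc4c (3.23), Sema5a (2.98) and the netrin receptor Unc5d (4.84), and 6 lower. The exocytosis list (4 of 20 higher, 2 lower), the lysosome and mTOR list (1 of 25 higher, 2 lower), the list of ubiquitin and membrane traffic genes (2 of 19 higher, 2 lower) and the tumour susceptibility list (1 of 14 higher, 2 lower) are to be read against 12.8% of all genes higher and 10.8% lower. The MAPK feedback list and the genes next to Tmem127 gave 0 of 4 and 0 of 2 in either direction, and the ribosomal RNA locus and mitochondrial list gave 4 of 8 higher.

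**Figure D2:**
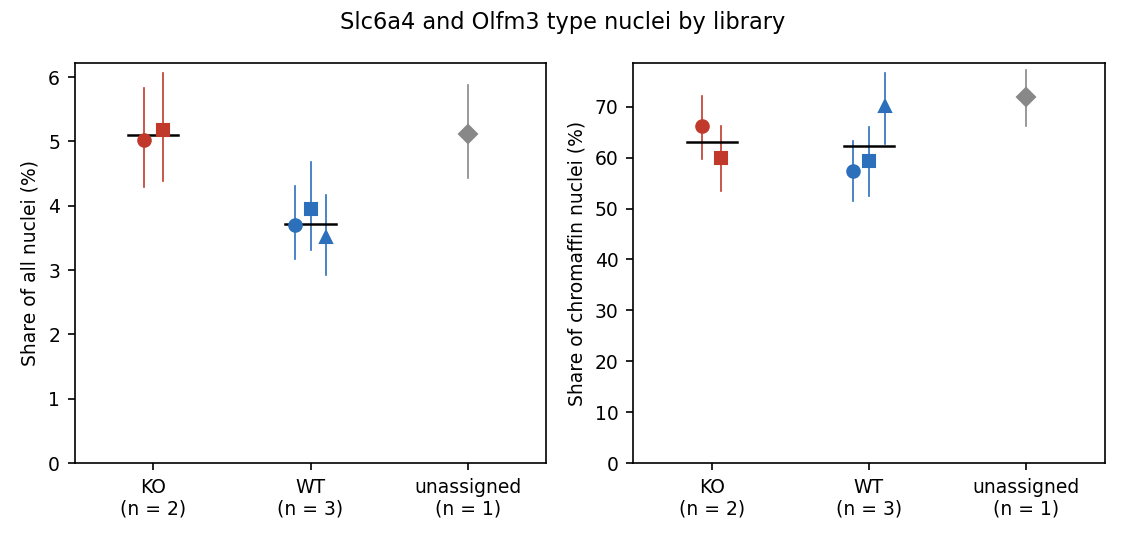
Members as a percent of all nuclei used and as a percent of chromaffin nuclei, 1 point per library with its exact 95% binomial interval and bars at group means. KO libraries lie at 5.02% and 5.18% of all nuclei and WT libraries at 3.51% to 3.96%, whereas shares of chromaffin nuclei overlap.

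The number of members was compared between KO and WT. Members made up 5.02% and 5.18% of all nuclei in KO and 3.71%, 3.96% and 3.51% in WT. Both KO libraries lay above every WT library, with means of 5.10% ± 0.109 (SD, n = 2) and 3.72% ± 0.225 (SD, n = 3) and a difference of 1.38 percentage points. The exact two-sided permutation test over libraries gave p = 0.1, which is the smallest p that 2 against 3 libraries allow. Within the 4.0.0 batch the values were 5.02% and 3.71%, and within the 3.1.0 batch 5.18% against 3.96% and 3.51%. The library with conflicting labels stood at 5.12% (95% exact binomial interval 4.43% to 5.88%, counting error only). A share of all nuclei also depends on how many cortical and other nuclei were captured.

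Within the chromaffin nuclei the share of members overlapped between groups. The KO libraries had 66.1% and 59.9%, the WT libraries 57.4%, 59.4% and 70.1%, and the library with conflicting labels 72.0%. The means were 63.0% ± 4.39 (SD, n = 2) and 62.3% ± 6.80 (SD, n = 3), and the exact two-sided permutation p was 0.9.

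Tmem127 was measured first among genes, as the targeted gene. It stood at 37 and 45.3 CPM in KO members, at 26.6, 26.7 and 22.2 CPM in WT members and at 21 CPM in the library with conflicting labels. The KO libraries were thus not lower, with a log2 fold change of 0.65 (SE 0.30) and an adjusted p of 0.941 (edgeR quasi-likelihood test, Benjamini-Hochberg). Summed over all nuclei of a library, its level was 45.8 and 45.2 CPM in KO, 38, 38.1 and 36.1 CPM in WT and 36.4 CPM in the library with conflicting labels. Because the deleted part is not given and reads come from RNA 3′ ends, this level checks no label.

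Most catecholamine genes, Th, Dbh and Pnmt among them, overlapped between KO and WT members. In edgeR's test over 10306 genes, with the batch as a term, 0 genes (0%) passed an adjusted p of 0.05, while 532 (5.16%) had an unadjusted p under 0.05, made up of 350 genes (3.4%) with a higher and 182 (1.77%) with a lower level in KO. DESeq2 called 12 genes (0.116% of the same genes, with 163 or 1.58% at an unadjusted p under 0.05), of which 9 were higher in KO, and these included Bmpr1b, Junb, Gm48099, Gpc6, Hspa8, Taco1, Il31ra, Fos, Pde10a, Gm42418 and Egr1. Of the 16 catecholamine genes tested 8 had a fold change above 0 and 8 below, with a median of -0.05 against 0.01 over all genes, and 0 had an unadjusted p under 0.05. Th stood at 1222 and 1690.2 CPM in KO and 1066, 2009 and 1593 CPM in WT (log2 0.01, SE 0.19). Dbh stood at 331 and 412 against 423, 529.6 and 291 CPM (-0.18, SE 0.25), and Pnmt had a log2 fold change of -0.15 (SE 0.23). The groups overlapped for these 3 genes. Ddc, at 470.0 and 459 CPM in KO against 655, 633 and 489 CPM in WT (-0.40, SE 0.19), was the list's member for which both KO libraries lay below every WT library, where 8.02% of all genes do so. Th, Dbh and Ddc are rule genes whose UMIs helped to choose the nuclei, so their values are a description. Of the 16 genes of the list, 11 lay outside the rule.

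The share of members with Pnmt overlapped between groups at equal depth. Thinned to 1000 UMIs, the KO libraries had 20.5% and 48.1%, the WT libraries 27.3%, 43.8% and 41.1%, and the library with conflicting labels 39.5%. The means were 34.3% ± 19.5 (SD, n = 2) and 37.4% ± 8.85 (SD, n = 3), with an exact permutation p of 0.8. KO replicate 1 lay below WT replicate 1 of its batch, whereas KO replicate 2 lay above both WT libraries of its batch. Without thinning the KO libraries had 74.7% and 71.0% and the WT libraries 84.9%, 76.2% and 91.1%, so the groups did not overlap at these unequal depths (difference -11.2 percentage points, exact permutation p = 0.2).

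Immediate early genes, which neurons and endocrine cells switch on within minutes of a stimulus, held 4 of the 10 smallest p values between KO and WT members: Fos, Junb, Egr1 and Dusp1. Fos encodes a subunit of the AP-1 factor, Junb its partner, and Dusp1 a phosphatase that turns MAP kinases off. The RefSeq windows of 250 bases before the start of Fos (chr12:85473640-85473889, plus strand), Junb (chr8:84978749-84978998, minus strand) and Dusp1 (chr17:26508473-26508722, minus strand), build GRCm38.p6, are shown because these 3 genes had fold changes among the largest of the list. They read 5′ to 3′ on the gene's strand, with capitals marking each TGACG or its reverse complement CGTCA, the core of the cAMP response element, and TGACGTCA, the whole element:
Fos: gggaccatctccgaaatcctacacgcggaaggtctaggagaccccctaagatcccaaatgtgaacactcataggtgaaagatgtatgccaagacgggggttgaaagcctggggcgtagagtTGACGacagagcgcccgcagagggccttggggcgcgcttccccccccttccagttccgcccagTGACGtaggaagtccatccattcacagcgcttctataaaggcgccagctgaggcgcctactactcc
Junb: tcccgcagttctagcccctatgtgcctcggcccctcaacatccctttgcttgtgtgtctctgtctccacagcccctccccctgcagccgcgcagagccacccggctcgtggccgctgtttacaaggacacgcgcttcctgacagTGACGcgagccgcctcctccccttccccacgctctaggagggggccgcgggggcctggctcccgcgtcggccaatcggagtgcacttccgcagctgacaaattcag
Dusp1: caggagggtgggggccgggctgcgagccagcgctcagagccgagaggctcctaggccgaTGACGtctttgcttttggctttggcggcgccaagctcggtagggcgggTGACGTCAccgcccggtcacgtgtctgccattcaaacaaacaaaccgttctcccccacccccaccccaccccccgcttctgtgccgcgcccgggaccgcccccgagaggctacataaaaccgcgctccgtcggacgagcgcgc
The first base of the core lay 129 and 66 bases before the start in Fos and 106 bases before it in Junb. Dusp1 held one at 191 bases and, starting 143 bases before the start, the whole palindrome, which counts as a core on each strand. Of the 15 genes of the list that were tested, 12 had a window that could be read, of which 7 held a core and 2, Dusp1 and Btg2, the whole element. Of 32851 windows of all genes 17.8% held the core and 1.55% the whole element. A match describes letters, not bound sites.

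Fos (chr12:85473890-85477273, plus strand) stood at 110.5 and 154 CPM in KO members, at 31.3, 6.29 and 12.1 CPM in WT members and at 23.2 CPM in the library with conflicting labels. Both KO libraries lay above every WT library, with a log2 fold change of 2.74 (SE 0.40), 1.79 within the 4.0.0 batch and 3.92 within the 3.1.0 batch. Its adjusted p was 0.0794 in edgeR's test, as was that of each of the 10 genes with the smallest p, so Fos did not pass. Junb stood at 60.9 and 56.6 against 13.8, 11 and 10.1 CPM (2.24, SE 0.31) and at 23.2 CPM in the library with conflicting labels. Egr1, a zinc finger factor, stood at 205 and 498 against 99.4, 118 and 80.1 CPM (1.75, SE 0.28) and at 132 CPM in that library. Dusp1 stood at 29.5 and 47.5 against 5.46, 9.43 and 10.1 CPM (2.31, SE 0.38) and at 17.4 CPM in that library. For each of these 4 genes the KO and WT libraries did not overlap, and the library with conflicting labels lay between the WT and KO values for Junb, Egr1 and Dusp1 but among the WT values for Fos.

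**Figure D3:**
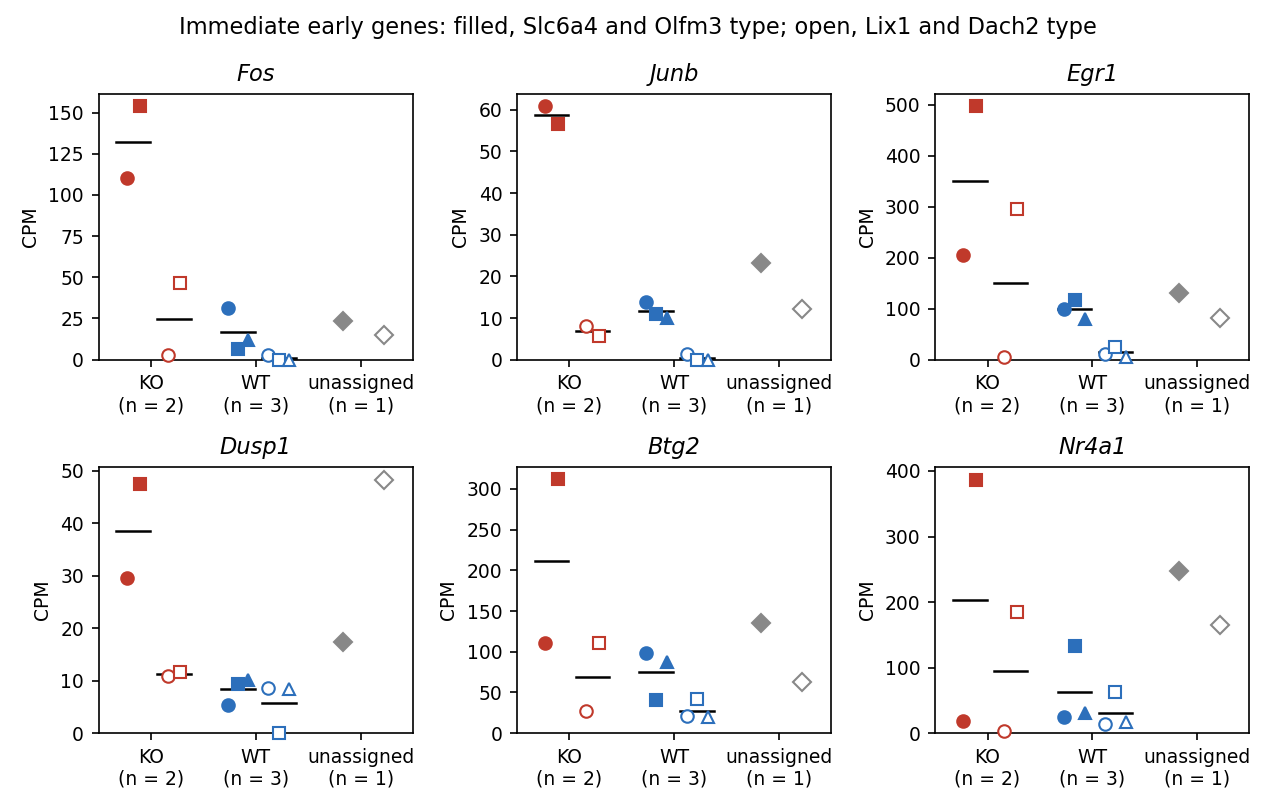
CPM of 6 immediate early genes by library in members (filled) and in the Lix1 and Dach2 type (open); each point is 1 library and the bar is the group mean. Filled KO points lie above every filled WT point for Fos, Junb, Egr1, Dusp1 and Btg2, while for Nr4a1 they lie at 18.8 and 387 against 24.8 to 134 CPM.

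Of 27 immediate early genes on the list 15 passed the filter on low counts, and 14 of these had a fold change above 0, with a median log2 of 1.37 against 0.01 over all genes. The list's median was 2.22 without KO replicate 1 and 2.20 without WT replicate 1. Because of the batch term, both of these fits compare KO replicate 2 with WT replicates 2 and 3. Without KO replicate 2 the median was 1.09, from KO replicate 1 against WT replicate 1. With the library with conflicting labels counted as WT it was 0.80. An unadjusted p under 0.05 with a higher level in KO was found for 10 of the 15, against 3.4% of all genes, and both KO libraries lay above every WT library for 8 of the 15, against 13.1% of all genes. Jund (20.1 and 40.7 against 4.73, 6.29 and 12.1 CPM), Nr4a2 (8.16 and 33.9 against 1.09, 3.14 and 7.4 CPM), Btg2 (110.5 and 312 against 98.7, 40.9 and 87.5 CPM) and Ier2 (14.4 and 15.8 against 4, 1.57 and 13.5 CPM) completed the 8. This list, like the others, was chosen with earlier results of these data known, so its counts are a description. Whether low genes such as Nr4a2 and Ier2 passed the filter through the KO libraries alone was not tested. Fosl2 (52.7 and 380.1 against 45.5, 152 and 37 CPM), Egr3 (2.51 and 76.9 against 2.18, 12.6 and 8.08 CPM) and Nr4a3 (2.51 and 36.2 against 1.09, 25.1 and 5.38 CPM) were high in KO replicate 2 and overlapped with WT in KO replicate 1. Nr4a1, at 18.8 and 387 against 24.8, 134 and 31 CPM, had a log2 difference of -0.38 within the 4.0.0 batch and of 2.22 within the 3.1.0 batch. Jun, Klf6 and Hsph1, a heat shock protein, had log2 fold changes of 0.79, 0.11 and -0.31.

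Fos was found in 51 of 162 and 50 of 145 members of the KO libraries, in 36 of 166, 3 of 130 and 11 of 124 members of the WT libraries and in 37 of 190 members of the library with conflicting labels. After thinning to 1000 UMIs the shares were 7.45% and 13% in KO, and 3.03%, 0% and 4.03% in WT. In WT replicate 2, 0 of 128 members allows a share of up to 2.34% of members with a UMI at this depth (3 counts of the total). The library with conflicting labels, at 1.05% (2 of 190), lay among the WT values. The groups did not overlap, with means of 10.2% ± 3.91 (SD, n = 2) against 2.35% ± 2.10 (SD, n = 3), and the exact permutation p was 0.1, the smallest possible. Without thinning the means were 33.0% and 11.0% (exact permutation p = 0.2). In cortical reference nuclei the thinned share was 0.219% and 2.31% in KO, 0% in each WT library and 2.73% in the library with conflicting labels. By the same limit of 3 counts, 0 nuclei allow a share of up to 0.177%, 0.241% and 0.241% in the WT libraries. KO replicate 1, with 3 of 1371 nuclei, was thus not set apart from the WT libraries there.

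Other measures moved with the same libraries. In the Lix1 and Dach2 type 5 of 5 tested immediate early genes had a fold change above 0, with a median of 1.12, and in cortical nuclei 18 of 20 did, with a median of 0.72, none of them called. Fos in cortical nuclei had a log2 fold change of 3.21 (adjusted p 0.898 in edgeR's test), and the difference between members and cortical nuclei was not tested. Gm42418, a gene model that overlaps a ribosomal RNA locus, stood at 13036 and 9066 CPM in KO members, at 5458, 5099.9 and 2484 CPM in WT members and at 2239 CPM in the library with conflicting labels. All 8 genes of the ribosomal RNA locus and mitochondrial list had a fold change above 0 (51.4% of all genes), with a median of 1.41. Each had an unadjusted p under 0.05 in edgeR's test (3.4% of all genes, higher in KO). Both KO libraries lay above every WT library for 3 of the 8 (13.1% of all genes). The 13 mitochondrial transcripts together stood at 887 and 5485 CPM in KO and at 1065, 1540.2 and 291 CPM in WT, highest in KO replicate 2, and mt-Co1 had a log2 difference of -0.32 within the 4.0.0 batch and of 2.53 within the 3.1.0 batch. The part of RNA composition and of free RNA in the immediate early values was not tested.

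Transcription factors of the sympathoadrenal lineage were next. Of 14 tested 11 had a fold change above 0, with a median of 0.35, 5 had an unadjusted p under 0.05, all higher in KO (3.4% of all genes), and both KO libraries lay above every WT library for 6 (13.1% of all genes). Phox2a, a homeodomain factor of autonomic and chromaffin cells, stood at 145 and 129 against 103, 47.1 and 56.5 CPM (0.86, SE 0.24), and Gata2 at 295 and 294 against 230.1, 118 and 140.0 CPM (0.77, SE 0.22). Epas1 stood at 38.9 and 56.6 against 21.5, 34.6 and 12.1 CPM (1.10, SE 0.40). For these 3 genes the groups did not overlap, and they were chosen for print after their values were seen. In the Lix1 and Dach2 type 6 of 12 factors were above 0, with a median of 0.03, and in cortical nuclei 12 of 13 were, with a median of 0.67. The difference between members and cortical nuclei was not tested for this list.

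On the receptor side, 9 of 12 RET-pathway and growth factor receptor genes tested were below 0, with a median of -0.29. Gpc6, a glypican of the cell surface (chr14:116925315-117976544, plus strand), stood at 255 and 396 CPM in KO, at 731, 764 and 825 CPM in WT and at 566 CPM in the library with conflicting labels (log2 -1.26, SE 0.19). Bmpr1b, a type I BMP receptor (chr3:141837136-142169425, minus strand), stood at 54.6 and 156 against 159.8, 300.2 and 336 CPM and at 146 CPM in that library (-1.29, SE 0.21). Erbb4, the neuregulin receptor, stood at 185 and 158 against 256, 291 and 273 CPM (-0.68, SE 0.19) and at 416 CPM in that library. These were the 3 with an unadjusted p under 0.05, and for each both KO libraries lay below every WT library (8.02% of all genes). All 3 were among the genes far higher in members than in the Lix1 and Dach2 type, and in that type Bmpr1b had a log2 fold change of -1.20 and Gpc6 of -0.35.

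Granule genes gave 11 of 16 above 0 and a median of 0.16, with 4 at an unadjusted p under 0.05 and higher (3.4% of all genes) and 3 lower (1.77%). Scg2 (log2 0.50, SE 0.19), Vgf (1.28, SE 0.36), Adm (1.84, SE 0.42) and Gal (1.60, SE 0.56) had an unadjusted p under 0.05 and were higher in KO, and Adm, which encodes adrenomedullin, stood at 38.9 and 31.7 against 11.3, 12.6 and 5.38 CPM. The processing enzymes Pcsk2 (-0.45), Cpe (-0.56) and Pam (-0.63) had an unadjusted p under 0.05 and were lower. Pam, which amidates peptides, stood at 492 and 833 CPM in KO and at 659, 1066 and 1709 CPM in WT, so the groups overlapped. Chga stood at 1858 and 1566 against 1921, 1633 and 1320.4 CPM and Chgb at 1315 and 2359.9 against 1535, 2604 and 1013 CPM, both overlapping. Both are rule genes, and their values are a description.

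Among channels, 11 of 19 potassium channel genes were below 0, and 4 had an unadjusted p under 0.05, all lower in KO (1.77% of all genes). These were Kcnq5 (-1.09), at 78.4 and 31.7 against 128, 91.2 and 102 CPM, Kcnb2 (-1.05), Kcnmb2 (-0.46) and Kcnip4 (-0.42). Over all genes 51.4% were above 0, with a median of 0.01. The calcium channel list had 5 of 16 genes above 0 (median -0.07) and the sodium channel list 3 of 8 (-0.09). The list of receptors for splanchnic input had 2 of 6 above 0 (-0.16) and that of receptors for amines and amino acids 2 of 12 (-0.18). Of these receptors Chrna7, a nicotinic subunit, had an unadjusted p under 0.05 (-0.56), at 815 and 805 against 926, 1070.3 and 1767 CPM. Adhesion and synapse genes, rule genes included, gave 5 of 22 above 0 (median -0.23). Lrrtm4 had a log2 fold change of -0.85, which is a description only, since its detection counted against membership under the rule.

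For the lysosome and mTOR list, which holds the compartment where TMEM127 resides, 20 of 29 genes were above 0 (51.4% of all genes), with a median of 0.16. At an unadjusted p under 0.05 in edgeR's test, 3 genes were higher in KO (3.4% of all genes) and 1 was lower (1.77%). Both KO libraries lay above every WT library for 7 genes (13.1% of all genes) and below for 1 (8.02%). Hexa (0.68, SE 0.26), which encodes a lysosomal hexosaminidase subunit, and the protease gene Ctsl (1.47, SE 0.49) were among the 3 that were higher. Hexa stood at 55.2 and 52 against 33.5, 31.4 and 32.3 CPM and Ctsl at 13.8 and 33.9 against 6.92, 4.71 and 10.8 CPM, with no overlap of the groups. Rragc, a GTPase that recruits mTORC1, had a log2 fold change of -0.74. On the glucocorticoid list 9 of 11 were above 0 (median 0.29), and Errfi1 (1.73) and Mt1 (1.32) had an unadjusted p under 0.05 (3.4% of all genes, higher in KO). The other lists had medians of -0.14 to 0.29: exocytosis with 9 of 23 above 0 (median -0.11), ubiquitin and membrane traffic with 7 of 21 (-0.09), tumour susceptibility with 7 of 16 (-0.06), MAPK feedback with 3 of 9 (-0.14) and the genes next to Tmem127 with 3 of 3 (0.29).

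**Figure D4:**
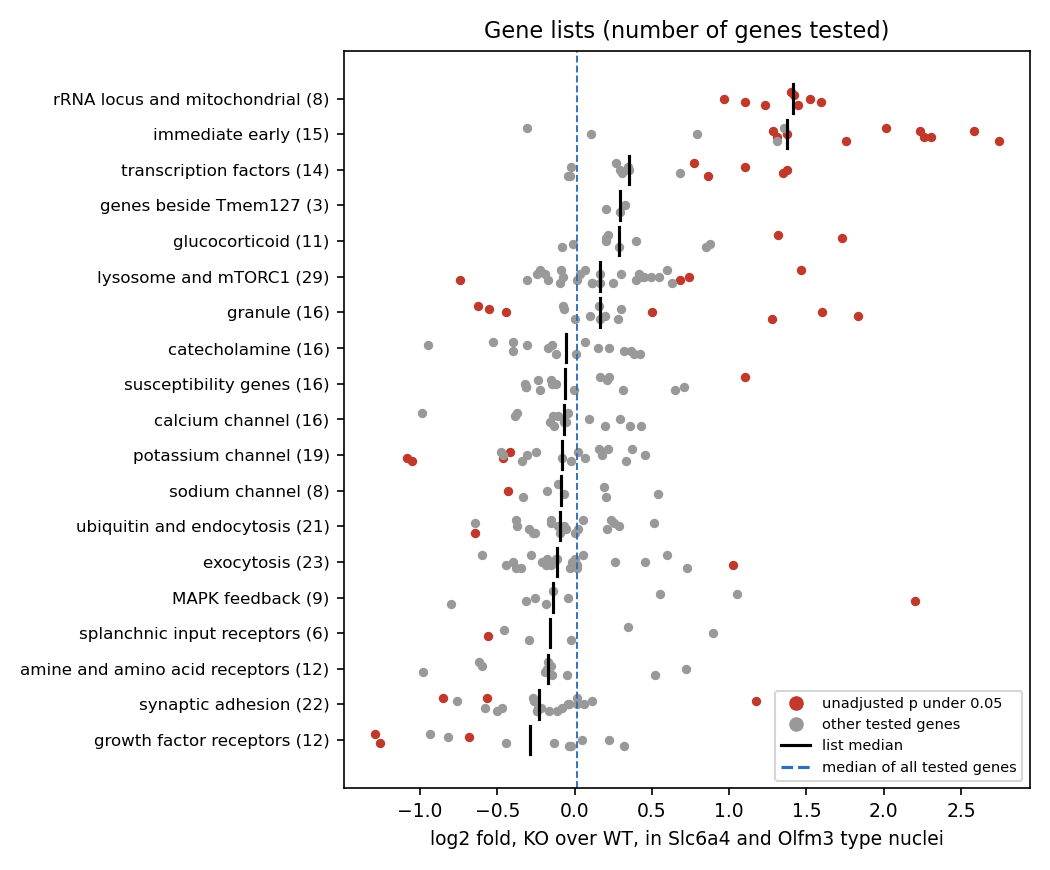
Log2 fold change of KO over WT in members for the tested genes of each list (number in brackets); each point is 1 gene, red where its unadjusted p was under 0.05, the black bar is the list median and the dashed line the median of all genes tested. The immediate early list has a median of 1.37, the ribosomal RNA locus and mitochondrial list one of 1.41, and the other lists lie between -0.29 and 0.35.

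The genes with the smallest p also included Pde10a, Gm48099 and Il31ra. Gm48099, an unnamed gene model, stood at 67.1 and 38.5 CPM in KO and at 8.74, 9.43 and 1.35 CPM in WT, and Il31ra, a cytokine receptor, at 111 and 52 against 17.5, 25.1 and 14.8 CPM. Cortical nuclei of the same libraries held both at like levels, Gm48099 at 61 and 39.8 against 10.7, 12.6 and 2.39 CPM and Il31ra at 109.6 and 41 against 16.1, 32.9 and 10.5 CPM. For both genes, members and cortical nuclei showed the same order of libraries.

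Pde10a, a phosphodiesterase of cAMP and cGMP (chr17:8525372-8986648, plus strand), had the opposite order in the 2 chromaffin types. In members it stood at 722 and 975 CPM in KO, at 1478, 2691 and 3051 CPM in WT and at 2996 CPM in the library with conflicting labels (log2 -1.35, SE 0.20; -1.03 in the 4.0.0 batch and -1.56 in the 3.1.0 batch). In the Lix1 and Dach2 type it stood at 1347 and 2202 CPM in KO, at 816, 957 and 647 CPM in WT and at 1588 CPM in the library with conflicting labels (log2 1.16, adjusted p 0.0177 in edgeR's test, in which 9 of 5974 genes or 0.151% passed and 303 or 5.07% had an unadjusted p under 0.05). Neither comparison had overlapping groups, and in the Lix1 and Dach2 type 1 nucleus of KO replicate 1 gave 290 of that library's 997 Pde10a UMIs. Cortical nuclei had 372 and 361 CPM in KO against 753, 517 and 1431 CPM in WT.

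The difference in KO effect between the 2 types was tested itself, in edgeR with a term for type by genotype and the library as a block, and 8 of 8975 genes (0.0891%) passed an adjusted p of 0.05 and 412 (4.59%) had an unadjusted p under 0.05. Pde10a had the smallest p, with a difference of -2.57 (log2, adjusted p 0.000127). With the top nucleus of each gene, library and type left out, a check chosen after the data were seen, it was -2.49 (adjusted p 4.68e-05) and was the only gene still called, while its value in the Lix1 and Dach2 type alone then had an adjusted p of 0.0602. With the library with conflicting labels counted as KO, the Pde10a difference was -1.86 (adjusted p 0.508). The other 7 genes included some with most UMIs in 1 nucleus, such as Cntnap2, for which 1 nucleus gave 61 of 86 UMIs in the Lix1 and Dach2 type of KO replicate 1 and another 238 of 293 UMIs in members of WT replicate 3.

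**Figure D5:**
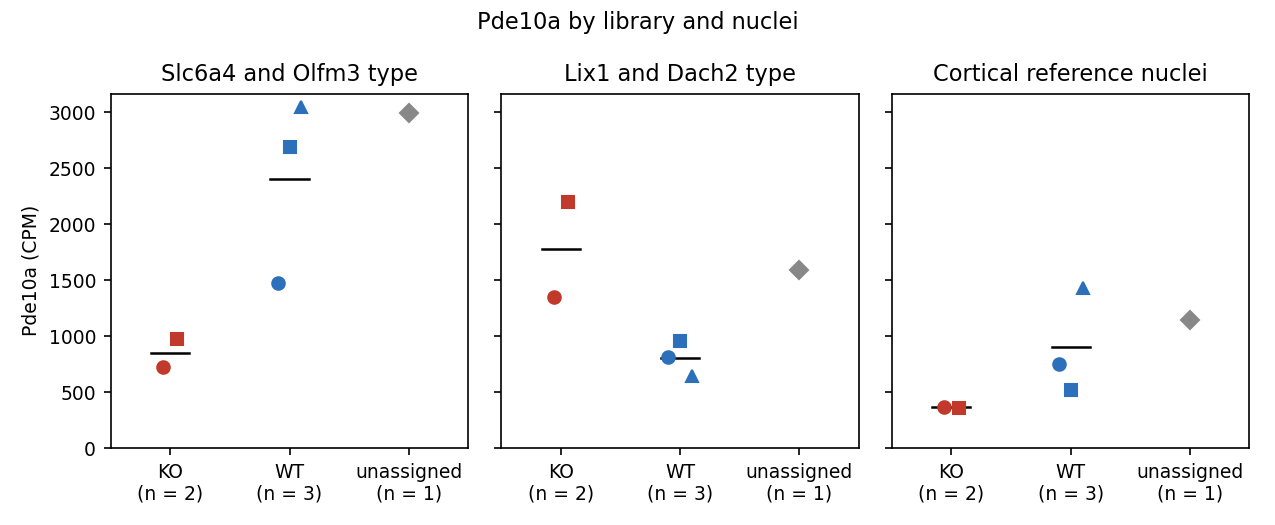
Pde10a in members, in the Lix1 and Dach2 type and in cortical reference nuclei, in CPM of summed UMIs; each point is 1 library and the bar is the group mean. KO libraries lie at 722 and 975 CPM in members, below the WT libraries at 1478 to 3051 CPM, and at 1347 and 2202 CPM in the Lix1 and Dach2 type, above the WT libraries at 647 to 957 CPM.

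The count of genes called between KO and WT members moved with single libraries and nuclei. In edgeR it was 60 without WT replicate 2 and 50 without WT replicate 3. Each of the 10 genes with the smallest p passed in both, whereas 0 of them passed without WT replicate 1. These 10 were chosen from the same libraries, so the fits are not a separate check of them. With the top nucleus of each gene left out the count was 7 of 9719 (0.072%), with 454 (4.67%) at an unadjusted p under 0.05. The 7 included Bmpr1b, Junb, Gpc6, Fos, Pde10a and Egr1. On counts simulated at these depths, genes with a 2-fold change were recovered at a rate of 43% and those with a 4-fold change at 100%. The simulation gave every gene the same dispersion (0.0384) and changed only genes above the median level. These rates therefore do not apply to genes of lower level or wider spread between libraries, and a gene not called may still differ by 4-fold.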

How the data were processed

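The files deposited by the authors hold UMI counts per gene and nucleus for 6 libraries, as raw 10x matrices. Per the submitters' processing notes, Cell Ranger and Seurat were used with mm10; per the file headers, the Cell Ranger versions were 4.0.0 and 3.1.0. No source used here states whether intronic reads entered the counts. From these counts, 30406 genes common to both annotations were kept, nuclei with under 300 genes or at least 5% mitochondrial UMIs (48) were dropped, and 644 doublets were marked by scrublet in scanpy 1.11.5 at 0.8% per 1000 barcodes and removed. With no filter the rule gives 986 members. UMIs were summed per library and type. KO was compared with WT in edgeR 4.0.16 (quasi-likelihood, TMM, filterByExpr, batch term, two-sided, Benjamini-Hochberg at 0.05 over all genes tested) and in DESeq2 1.42.0. Shares were compared by exact permutation over libraries. On simulated counts with 200 changed genes, 43%, 100% and 100% were recovered at 2, 4 and 8-fold (10306 genes), and for the type by genotype term 6.5%, 87% and 100% (7548 genes). Intervals cover counting error only. The members and all 19 gene lists were chosen with earlier results of these data known. Lists compared between KO and WT kept the rule genes they hold, whereas lists compared between types left them out. Genes were named by a rule: Tmem127, the 10 smallest p, all catecholamine and immediate early genes, called or most abundant members of the other lists, the 12 highest and 12 lowest ratios between types and the 10 highest against other nuclei; list genes with an unadjusted p under 0.05, other list examples and Ret were chosen after their values were seen. Gene positions come from GENCODE M21 and promoter windows from RefSeq. A few genes that the rule or the lists would name are not reported here.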

Additional observations from a re-analysis of the deposited data

Results flagged for a closer look

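In all, 8 genes had a KO effect that differed between the Slc6a4 and Olfm3 type and the Lix1 and Dach2 type in edgeR's test of the difference with Benjamini-Hochberg adjustment. The log2 differences, members minus the other type, were -2.57 for Pde10a (adjusted p 0.000127), -2.73 for Gm16223 (0.000489), -1.47 for Pak3 (0.0135), -2.40 for Cntnap2 (0.0265), 2.83 for Gm15675 (0.0265), -7.52 for Aff3 (0.0312), -1.29 for Pam (0.0328) and -4.37 for Nlgn1 (0.0486). Aff3 had no UMI in the Lix1 and Dach2 type of the WT libraries, so its value depends on the prior count and is no bound. In the Lix1 and Dach2 type of KO replicate 1 a single nucleus gave 77 of 110 UMIs of Gm16223, 78 of 162 of Pak3, 112 of 428 of Pam, 24 of 35 of Nlgn1 and 12 of 16 of Aff3, and a single member of WT replicate 3 gave 65 of 99 UMIs of Aff3. With the top nucleus of each gene, library and type left out, the difference was -1.74 for Gm16223 (adjusted p 0.118), -1.24 for Pak3 (0.174), -0.53 for Cntnap2 (1), 2.71 for Gm15675 (0.118), -1.11 for Pam (0.118) and -3.53 for Nlgn1 (0.972), and Aff3 was not tested.

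In the library with conflicting labels, which entered no comparison, members made up 5.12% of all nuclei, above the 3.51% to 3.96% of the WT libraries.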

How the results depend on the processing

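No paired analysis was possible because the labels carry no replicate numbers, so the numbers used here only name libraries. The difference in the share of all nuclei kept its sign in all 10 alternatives (1.03 to 1.78 percentage points). The difference in the share of chromaffin nuclei (0.73 points) was -0.31 with a margin of at least 2 genes, -1.69 with the library with conflicting labels as WT, and -2.37 to 4.62 when 1 library was left out. That in the thinned share with Pnmt (-3.09 points) ran from -16.9 to 10.7 when 1 library was left out, and that with Fos from 5.10 to 10.6. Genes called between KO and WT members (0) were 12 in DESeq2, 82 with no filter, 7 without the top nucleus of each gene and 0 to 60 when 1 library was left out, the lone library of an arm being assumed to vary like the others. Genes called for the difference between types (8) were 46 with no filter, 22 with a batch by type term, 3 in DESeq2, 1 without the top nucleus, 1 and 4 with the library with conflicting labels as KO and as WT, and 1 to 30 when 1 library was left out (1 without KO replicate 1, 2 without WT replicate 3, 14 without WT replicate 1, 30 without KO replicate 2). The median fold change of the immediate early list ran from 0.80 to 2.22. For KO against WT members, the fits without KO replicate 1 and without WT replicate 1 are not separate checks. With the batch term, both compare KO replicate 2 with WT replicates 2 and 3. Of 1466 values of 103 genes between KO and WT, 138 in 52 genes changed sign, none of them called. The cause of these shifts was not tested. The shallowest library, KO replicate 2, had 443281 member UMIs, so its low genes are the least precise.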

Other observations

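Several immediate early genes were high in members of the library with conflicting labels, which entered no comparison. Nr4a3 stood at 254 CPM there, against 2.51 and 36.2 CPM in KO and 1.09 to 25.1 CPM in WT. Nr4a2 stood at 93.7 CPM, against 8.16 and 33.9 CPM in KO, and Egr3 at 180.3 CPM, against 2.51 and 76.9 CPM. Nr4a1 (248 CPM) and Fosl2 (330.2 CPM) lay between the KO libraries. Cortical nuclei reached 992 CPM of Nr4a3 and 912 CPM of Nr4a2 in the library where each was highest.

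The cycling genes Mki67 and Top2a, chosen after the data were seen, were found in 0% to 0.690% of members of a library without thinning and in 0% after thinning to 1000 UMIs.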
